A study of Mus musculus with 9 samples.

Results

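The 46 genes described here encode the machinery that copies DNA in S phase and the enzymes that make its building blocks. They were chosen by name, for their role in origin recognition, licensing, unwinding, synthesis, strand joining or nucleotide supply. All 46 were found among the 16509 genes of the table, and all 46 were among the 11949 genes with enough counts to be tested. The 9 libraries were made from RNA of cultured MC38 cells, which derive from a mouse colon carcinoma. Ctrl denotes 3 libraries of control cells. Their vehicle was DMSO by the sample labels and PBS by the published methods. Cu-Cys denotes 3 libraries of cells given the copper and cystine preparation of that name, which the labels do not define further. Cadict denotes 3 libraries of cells given the nanodrug of that name, which carries copper, cystine and glucose oxidase and bears the EGFR-binding peptide GE11. In the column names the treated groups are CC and CCGE, and that CCGE stands for Cadict was inferred from its components. The dose and time for these libraries are not given in the sources used here. The study counts the libraries of a group as biological replicates, without describing how their cultures were kept apart, and the tests measure the spread between these libraries. The comparisons ask how the transcripts of the replication machinery differed between treated and control cells, and between Cu-Cys and the nanodrug.

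Replication begins where the origin recognition complex (ORC) sits on DNA. Cdc6 and Cdt1 then load the ring-shaped MCM helicase onto the origin, a step called licensing, and geminin (Gmnn) binds Cdt1 to prevent a repeat within the same cycle. Cdc45 and the GINS complex switch the loaded helicase on, the clamp loader RFC places the sliding clamp PCNA behind it, and polymerases alpha, delta and epsilon copy the strands while ribonucleotide reductase, thymidylate synthase and thymidine kinase keep deoxynucleotides available. Many of these genes are transcribed at the border of G1 and S phase by E2F factors, of which E2F1 is the best known.

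The letters that E2F factors are known to bind were looked up in the RefSeq promoter windows (GRCm38.p6), which run from 250 bases before to 50 bases after the annotated start. The letters searched were TTTCCCGC, TTTCGCGC, TTTGCCGC and TTTGGCGC on either strand. Of the 46 genes, 38 had a window, and 15 of those 38 (39.5%) held at least 1 match. The share was 2.6% of the 27025 genes with a window, tested or not. Of the tested genes with a window, 459 held a match and 9088 did not. The stretches below lie before the RefSeq start of genes that rose and of genes that fell after Cadict. Matches are in capitals, and where 2 matches on opposite strands overlap, both are covered. Mcm5 and Pola1 were higher and Mcm6, Orc1 and Orc3 lower in Cadict libraries than in Ctrl libraries. When library totals set the scale, Mcm5 had a reversed sign and Pola1 rose by only 0.18 on the log2 scale. The fall of Mcm6 did not pass with DESeq2 size factors. Mcm6 and Mcm5 encode subunits of the helicase, Pola1 the catalytic subunit of polymerase alpha, and Orc1 and Orc3 subunits of ORC.
Mcm5, chr8:75109336-75109387, plus strand: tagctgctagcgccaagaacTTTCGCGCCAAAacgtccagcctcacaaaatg
Pola1, chrX:93632266-93632313, minus strand: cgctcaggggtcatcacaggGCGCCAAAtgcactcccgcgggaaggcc
Mcm6, chr1:128359784-128359835, minus strand: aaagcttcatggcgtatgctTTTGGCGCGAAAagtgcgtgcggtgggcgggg
Orc3, chr4:34614956-34615003, minus strand: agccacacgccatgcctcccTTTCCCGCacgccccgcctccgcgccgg
Orc1, chr4:108579417-108579444, plus strand: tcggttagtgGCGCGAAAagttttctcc

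Levels are given in 2 units. CPM are counts scaled by the TMM method, which sets the typical gene equal between libraries, and they serve for 1 gene across libraries. TPM are transcript levels that take account of length and serve to compare genes within a library. Each library held 17905771 to 18293056 counts, and a count of 0 leaves room for up to 3 counts, or 0.13 to 0.261 CPM (counting error only). The members had 132 to 12445 counts in every library, far above that limit. The 46 genes took 0.797% ± 0.00645 of all counts in Ctrl, 0.765% ± 0.00311 in Cu-Cys and 0.512% ± 0.0153 in Cadict libraries (SD, n = 3 each). The scaling factors were 1.262 to 1.274 in Ctrl, 1.206 to 1.209 in Cu-Cys and 0.6395 to 0.6654 in Cadict libraries, so the choice of scaling sets where 0 lies. With library totals in place of TMM, the median of all genes moved by -0.95 on the log2 scale for Cadict against Ctrl, and with DESeq2 size factors it moved by 0.12. Changes are given relative to the typical gene, and the median of all tested genes was -0.13. Of the 7 markers checked for a colon carcinoma line, Krt8, Krt18, Epcam and Egfr, the receptor that the GE11 peptide binds, were under 1 TPM in every library. Krt19 and Cdh1 were low but rose after Cadict, by 3.34 ± 0.18 and 1.39 ± 0.10 on the log2 scale. Krt19 was at 1.72 to 3.2 TPM in Ctrl and 8.36 to 9.31 in Cadict libraries, and Cdh1 at 2.21 to 2.75 and 2.39 to 2.92. After Cu-Cys Cdh1 fell by 0.64 ± 0.12 and Krt19 did not pass. The mesenchymal filament gene Vim was high. Summed leukocyte markers were 4.79 to 8.76 TPM in Ctrl and Cu-Cys libraries and 15.25 to 18.65 TPM in Cadict libraries, with 3 of the 5 in the table under 1 TPM throughout. Summed fibroblast and endothelial markers were 20.18 to 23.15 TPM in Ctrl, 10.07 to 10.21 in Cu-Cys and 2.42 to 2.96 in Cadict libraries, and 2 of 4 were under 1 TPM throughout. The part of these markers in the results was not tested.

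After Cadict the replication genes did not move in a common direction. Of the 46, 20 rose, 22 fell and 4 (Mcm2, Gins2, Rfc3 and Rpa3) did not pass an adjusted p of at most 0.05 (quasi-likelihood test of edgeR, Benjamini-Hochberg adjusted over all tested genes). Over all tested genes, 40.6% rose and 47.1% fell by the same rule, so the members' shares of 43.5% and 47.8% were near the background. Their median log2 fold change was 0.0057, beside -0.13 for all tested genes. By the study's stricter threshold, at least a 2-fold change with an adjusted p of at most 0.001, 4 members (8.7%) were called higher and 9 (19.6%) lower, against 20.7% and 27.1% of all tested genes. The median size of change, whatever its sign, was 0.65 on the log2 scale among members and 0.995 among all tested genes. With library totals, 4 members passed higher and 38 lower, so the direction of most rises below depends on the scaling. Orc4 and Orc6 rose and 17 members fell under each of the 16 alternatives run, but library totals could only deepen a fall.

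**Figure D1:**
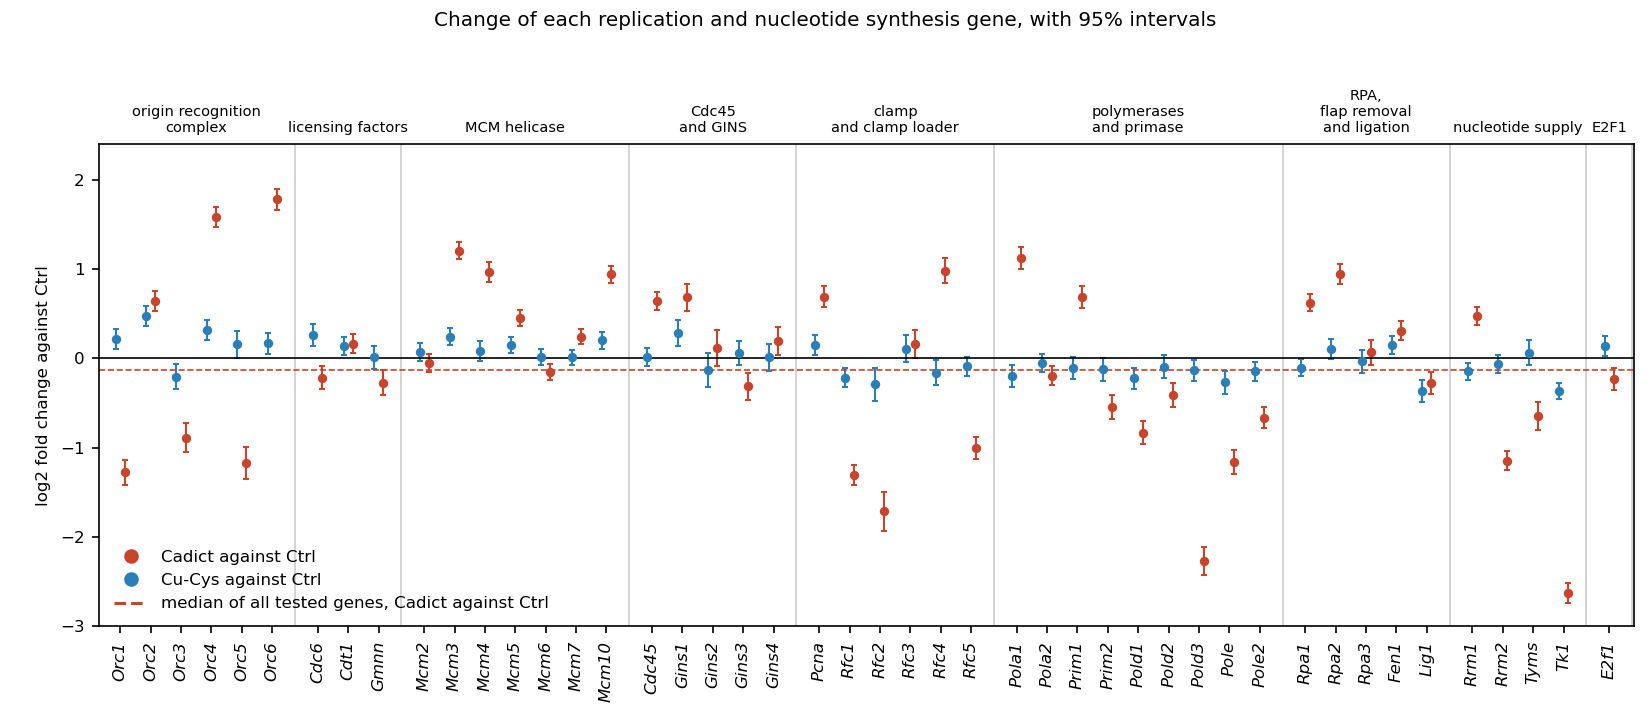
Log2 fold change (TMM-scaled counts) of each of the 46 genes against Ctrl, grouped by role, for Cadict (red) and Cu-Cys (blue). Bars are 95% intervals from the fit, and the dashed line is the median of all tested genes for Cadict (-0.13). In the Cadict comparison values run from -2.63 (Tk1) to 1.78 (Orc6), and genes of the same complex lie on both sides of 0, while Cu-Cys values lie between -0.37 and 0.47.

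The subunits of ORC moved in both directions, with 3 of 6 higher and 3 lower. Orc6, the smallest subunit, had 82.9, 85.6 and 85.3 CPM in Ctrl, 87.6, 100.4 and 97.3 in Cu-Cys and 294.8, 302.6 and 274.1 in Cadict libraries. Every Cadict library was far above every other library, and the rise was 3.43-fold (log2 1.78 ± 0.06 SE). Orc4, an ATP-binding subunit, went from 38.3 to 40.4 CPM in Ctrl libraries to 112.6 to 121.6 CPM in Cadict libraries, a 2.99-fold rise. Orc2 rose by less, 0.64 ± 0.06 on the log2 scale, with a reversed sign under library totals (-0.31). Orc1, the subunit whose ATPase activity drives helicase loading, had 40.5, 40.5 and 41.1 CPM in Ctrl, 47.2, 47.3 and 47.3 in Cu-Cys and 16.9, 15.1 and 18.5 in Cadict libraries. The groups did not overlap, with Cu-Cys libraries the highest and Cadict libraries the lowest. Orc1 fell by 1.27 ± 0.07 on the log2 scale, Orc5 fell by 1.17 ± 0.09 and Orc3 fell by 0.89 ± 0.08. Orc1, Orc4, Orc5 and Orc6 were the 4 of 6 subunits past the 2-fold threshold, 2 in each direction.

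Among the licensing factors the changes in TMM-scaled counts were small. Cdt1, the loading factor, had 89.3, 87.1 and 83.3 CPM in Ctrl, 98.3, 91.9 and 96.3 in Cu-Cys and 93.2, 99.3 and 98.8 in Cadict libraries. Cadict libraries lay just above Ctrl libraries (log2 0.17 ± 0.05, -0.79 under library totals, and 0.13 without Ctrl replicate 3, where it no longer passed) and overlapped Cu-Cys libraries. Cdc6, the ATPase that works with ORC, fell by 0.22 ± 0.07 on the log2 scale. Gmnn, the inhibitor of Cdt1, had 39.5, 42.2 and 42.9 CPM in Ctrl, 42.0, 43.4 and 40.1 in Cu-Cys and 31.8, 37.6 and 33.9 in Cadict libraries. Cadict libraries were below the others, by 0.27 ± 0.07 on the log2 scale against Ctrl. The falls of Cdc6 and Gmnn no longer passed with DESeq2 size factors, under which 0 of the 3 licensing factors passed lower. With library totals all 3 fell, Cdc6 by 1.17 and Gmnn by 1.23 on the log2 scale.

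For Gmnn the units gave different answers. Its expected counts were 913, 975 and 984 in Ctrl libraries and 374, 431 and 404 in Cadict libraries. Its TPM was 133 ± 2.8 in Ctrl and 15.3 ± 1.81 in Cadict libraries (SD, n = 3 each), which took it from place 15 to place 35 among the 46 genes. The length that count and FPKM together imply, that is, the effective length behind the FPKM of that library, was 663, 673 and 665 bases in Ctrl, 688, 695 and 718 in Cu-Cys and 2042, 1973 and 1842 in Cadict libraries. Every Cadict library thus had a Gmnn length 2.93-fold that of Ctrl on average. This gene was singled out after its values were seen. Of the 8768 tested genes with at least 50 counts in every Ctrl and Cadict library, Gmnn was the only one (0.0114%) whose implied length rose by more than a factor of 2, and 2 genes had an implied length that fell by more than that factor. GENCODE M21 (GRCm38, chr13:24751845-24761923, minus strand) lists 4 coding transcripts of Gmnn, of 723 to 1127 bases, all shorter than the length implied in Cadict libraries. Only 0.899% of the 50-base stretches of its transcripts occur in another annotated gene. The transcripts behind the deposited values are not given in the sources used here. Cdt1, by comparison, had implied lengths of 1851 to 1875 bases in all 9 libraries.

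**Figure D2:**
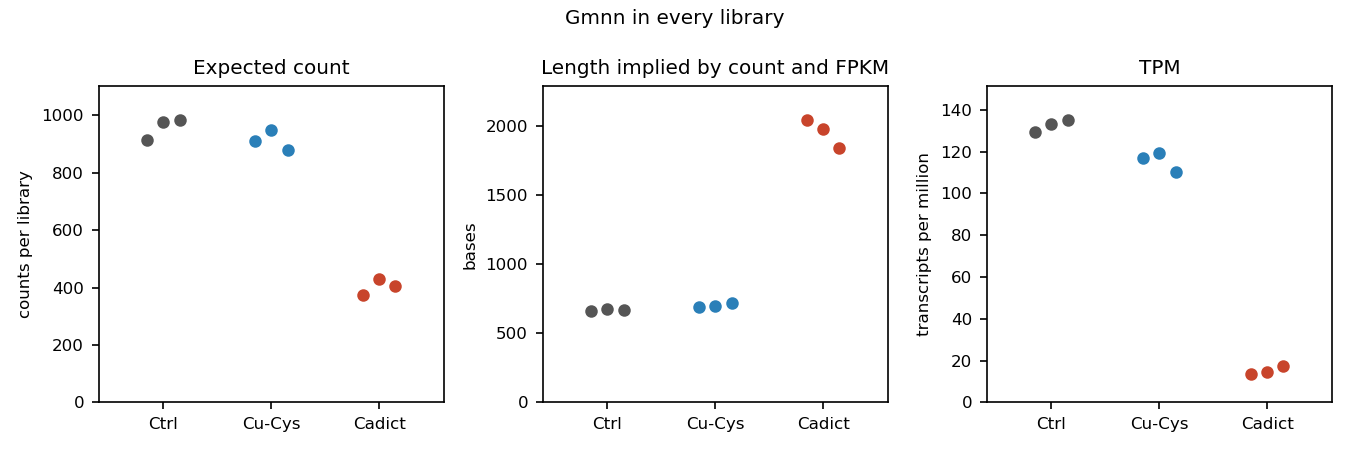
Gmnn in each of the 9 libraries as the deposited expected count (left), the length in bases implied by count and FPKM (middle) and TPM (right), with 1 point per library. Counts are 374 to 431 in Cadict libraries and 880 to 984 in the others, while the implied length is 1842 to 2042 bases in Cadict libraries and 663 to 718 in the others.

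The helicase genes leaned upwards on the TMM scale, with 5 of 7 higher, 1 lower and 1 not passing, and a median of 0.45, which became -0.50 with library totals. Mcm3 had 357.1, 367.5 and 355.9 CPM in Ctrl, 439.8, 418.4 and 420.2 in Cu-Cys and 846, 793.9 and 854.1 in Cadict libraries. The 3 groups were ordered Ctrl, Cu-Cys, Cadict without overlap, and the rise in Cadict was 2.31-fold. Mcm4 rose by 0.96 ± 0.06, Mcm5 by 0.45 ± 0.05 and Mcm7 by 0.24 ± 0.04 on the log2 scale. Mcm10, which is no ring subunit but helps to activate the helicase, rose by 0.94 ± 0.05. Under library totals Mcm5, Mcm7 and Mcm10 turned sign, Mcm4 stood at 0.0122 without passing, and Mcm3 rose by only 0.25. Mcm6 had 518.4, 507.8 and 511.8 CPM in Ctrl, 539, 505.2 and 511.9 in Cu-Cys and 459, 467.1 and 456.1 in Cadict libraries. It was lower in every Cadict library, by 0.15 ± 0.05 on the log2 scale, a fall that did not pass with DESeq2 size factors (-0.0350) or with DESeq2's Wald test (-0.0742). Mcm2 stood at -0.0547 ± 0.0524 without passing. The ring contains equal numbers of Mcm2 to Mcm7, yet the fold changes of their transcripts ran from 0.899 (Mcm6) to 2.31 (Mcm3).

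Cdc45 and the GINS genes, the partners of the active helicase, stayed within a 2-fold change on the TMM scale. Gins1 had 20.5, 21.0 and 22.2 CPM in Ctrl, 25.7, 25.8 and 26.1 in Cu-Cys and 33.1, 38.4 and 31.0 in Cadict libraries. The groups were ordered without overlap, and Gins1 rose by 0.68 ± 0.08 on the log2 scale in Cadict libraries, with -0.27 under library totals. Gins3 had 30.5, 30.3 and 32.0 CPM in Ctrl, 31.0, 31.4 and 34.5 in Cu-Cys and 22.7, 25 and 27.0 in Cadict libraries. Gins3 was lower in every Cadict library, by 0.31 ± 0.08 on the log2 scale, with -1.27 under library totals. Cdc45 rose by 0.64 ± 0.05 and Gins4 by 0.19 ± 0.08, both with a reversed sign under library totals, while Gins2 stood at 0.11 ± 0.10 and did not pass. Gins4 no longer passed without Cadict replicate 2 (0.0659) or without Ctrl replicate 1, 2 or 3 (0.18, 0.19 and 0.20).

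Pcna, the sliding clamp, rose on the TMM scale while most subunits of its loader fell. Pcna had 452.5, 460.7 and 494.5 CPM in Ctrl, 497.1, 554.1 and 514 in Cu-Cys and 719.2, 804.2 and 750.3 in Cadict libraries. Every Cadict library was above the rest (log2 0.69 ± 0.06, and -0.26 under library totals), and Pcna had the highest TPM of the 46 genes in both Ctrl (1078 ± 41.8) and Cadict libraries (698.5 ± 43.8). Of the 5 loader subunits, Rfc1, Rfc2 and Rfc5 were called lower. Rfc2 had 60.3, 64.5 and 64.9 CPM in Ctrl, 52.8, 48.5 and 54.0 in Cu-Cys and 20.2, 23.4 and 14.4 in Cadict libraries. The groups did not overlap, and Rfc2 fell by 1.71 ± 0.11 on the log2 scale, or 3.27-fold. Rfc1, the large subunit, fell by 1.31 ± 0.06 and Rfc5 by 1.01 ± 0.06. Rfc4 had 44.6, 42.6 and 48.1 CPM in Ctrl, 38.9, 42.3 and 39.6 in Cu-Cys and 84.2, 98.6 and 84.1 in Cadict libraries. It was the loader subunit that rose (0.98 ± 0.07, and 0.0252 under library totals), and Rfc3 stood at 0.16 ± 0.08 without passing.

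Of the 9 polymerase and primase genes 7 fell, and Pola1 and Prim1 rose. Pola1, the catalytic subunit of polymerase alpha that starts each strand, had 122.1, 123.9 and 132.7 CPM in Ctrl, 109.3, 114.9 and 106.5 in Cu-Cys and 285.4, 248.7 and 293.4 in Cadict libraries. Cu-Cys libraries were the lowest and Cadict libraries the highest, and the rise in Cadict was 2.19-fold. With library totals its log2 fold change was only 0.18, and on log2(TPM + 1) it was -0.17 without passing. Prim1, the catalytic primase subunit, rose by 0.69 ± 0.06 and had -0.27 under library totals. Their partners Pola2 and Prim2 fell by 0.19 ± 0.05 and by 0.54 ± 0.07, although the fall of Pola2 did not pass with DESeq2 size factors (-0.0736) or with DESeq2's Wald test (-0.11). Pold3, an accessory subunit of polymerase delta, had 57.5, 52.6 and 55.4 CPM in Ctrl, 54.2, 47.1 and 49.7 in Cu-Cys and 11.7, 11.5 and 11.1 in Cadict libraries. Ctrl and Cu-Cys libraries overlapped while the Cadict libraries stood apart, 4.82-fold below Ctrl. The catalytic subunits of the 2 polymerases that extend the strands also fell, Pold1 by 0.83 ± 0.07 and Pole by 1.16 ± 0.07 on the log2 scale, as did Pold2 (-0.41) and Pole2 (-0.66).

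On the TMM scale the single-strand binding protein RPA and the enzymes that join the lagging strand changed by less than 2-fold. Rpa2 had 81.3, 80.0 and 76.4 CPM in Ctrl, 83.1, 85.9 and 86.7 in Cu-Cys and 141.2, 161.1 and 155.7 in Cadict libraries. Cadict libraries stood above the rest by 0.95 ± 0.06 on the log2 scale, a value of -0.0074 under library totals. Rpa1, the large subunit, rose by 0.63 ± 0.05 and the flap nuclease gene Fen1 by 0.31 ± 0.05, both with a reversed sign under library totals, while Rpa3 stood at 0.0661 ± 0.0699. Lig1, the ligase that seals nicks, had 198.9, 204.3 and 195.9 CPM in Ctrl, 165.9, 146.7 and 153.7 in Cu-Cys and 158.9, 180.7 and 154.0 in Cadict libraries. On the TMM scale both treated groups lay below Ctrl and overlapped each other, with falls of 0.36 ± 0.06 for Cu-Cys and 0.28 ± 0.06 for Cadict. With library totals Lig1 stood at -1.23 for Cadict against Ctrl.

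Among the genes of nucleotide supply 3 of 4 fell. Tk1, the thymidine kinase of the salvage pathway, had 122.9, 124.5 and 121.0 CPM in Ctrl, 96.3, 96.4 and 93.0 in Cu-Cys and 20.3, 19.5 and 19.7 in Cadict libraries. The spread within each group was small beside the gaps between groups, and Tk1 had the lowest fold change of the 46 genes, 6.18-fold below Ctrl (log2 -2.63 ± 0.06, adjusted p = 1.55e-15 by edgeR's quasi-likelihood test). Rrm2, the subunit that holds the radical of ribonucleotide reductase, had 349.4, 358.6 and 368.8 CPM in Ctrl, 336.0, 352.8 and 341.5 in Cu-Cys and 156.3, 155.6 and 174.2 in Cadict libraries. Ctrl and Cu-Cys libraries overlapped, and Cadict libraries were 2.21-fold below Ctrl. Rrm1, the subunit with the catalytic and regulatory sites, had 511.1, 521.5 and 542.6 CPM in Ctrl, 478.2, 476.2 and 471.9 in Cu-Cys and 741.6, 688.6 and 760.0 in Cadict libraries. It was lowest in Cu-Cys libraries and highest in Cadict libraries (log2 0.48 ± 0.05, and -0.48 under library totals). Tyms, which makes thymidylate from dUMP, fell by 0.64 ± 0.08 on the log2 scale. E2f1 itself had 49.6, 48.2 and 45.5 CPM in Ctrl, 52.3, 50.7 and 54.3 in Cu-Cys and 41.3, 42.3 and 38.8 in Cadict libraries. Its Cadict libraries were the lowest, by 0.23 ± 0.06 on the log2 scale against Ctrl, a change that did not pass with DESeq2 size factors.

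**Figure D3:**
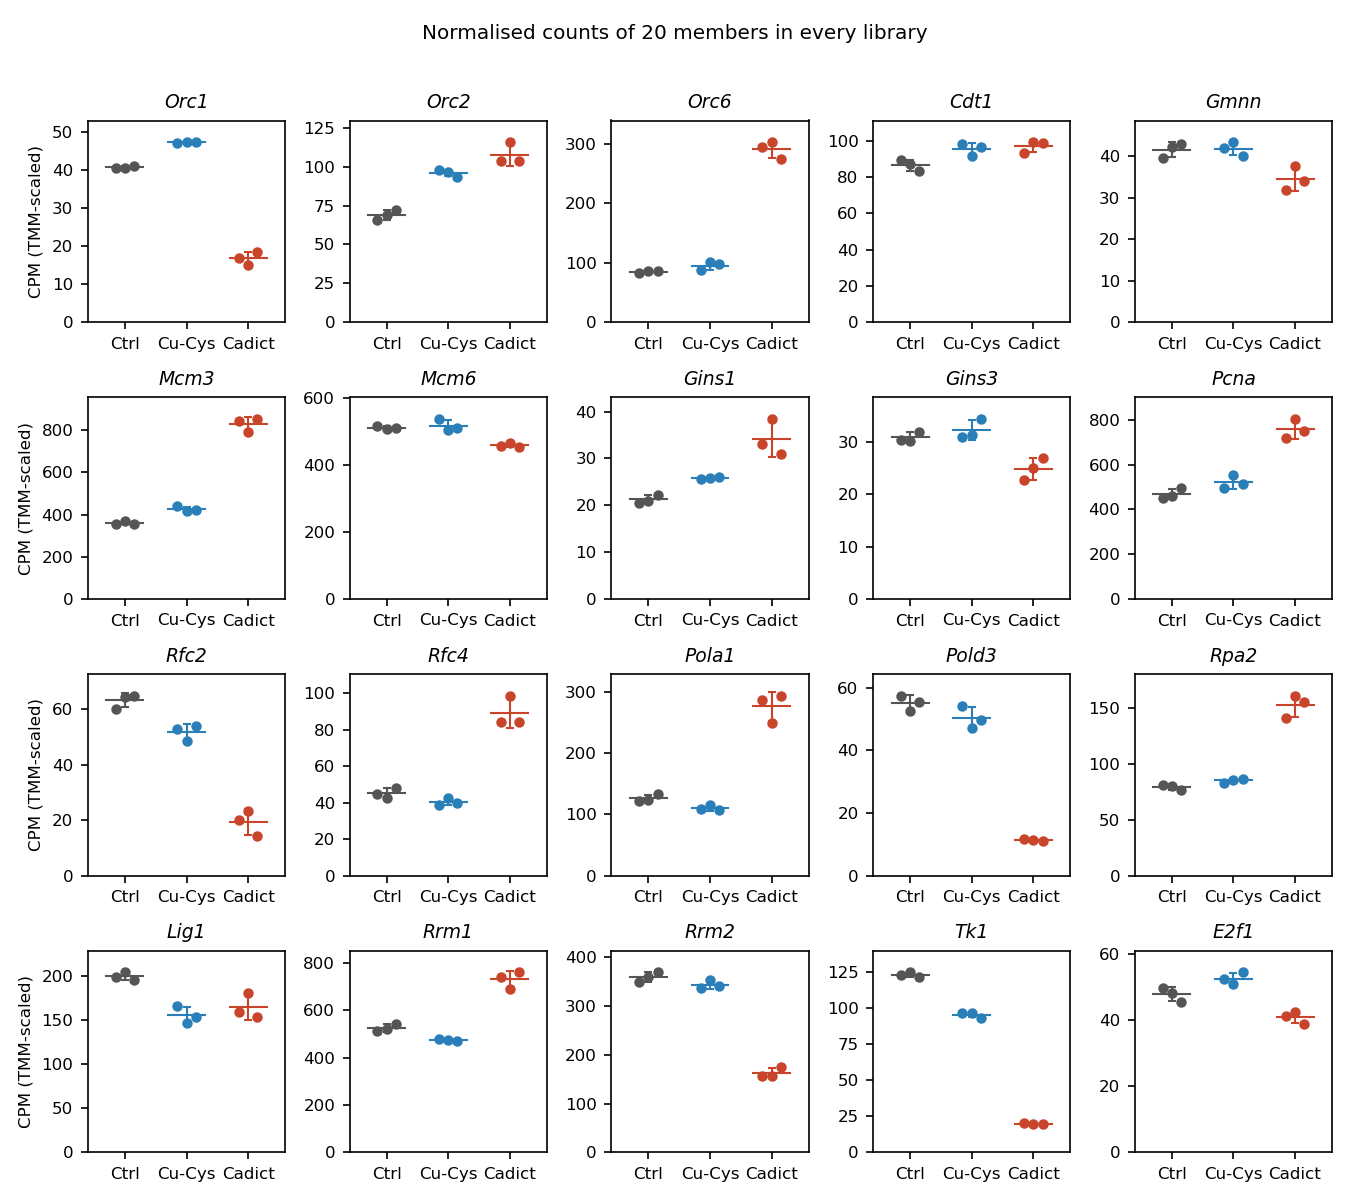
CPM (TMM-scaled, linear axes from 0) of 20 genes in each library, with 1 point per library, a line at the group mean and bars of 1 SD (n = 3). In Cadict libraries Orc6 (274.1 to 302.6) and Mcm3 (793.9 to 854.1) stand above all other libraries, and Tk1 (19.5 to 20.3) and Pold3 (11.1 to 11.7) below. Scaling by library totals would lower every Cadict point relative to the others.

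Ratios of TPM between partner genes of the same library do not depend on the scaling, and they give the same divergence. Rfc4 to Rfc1 was 1.31, 1.3 and 1.41 in Ctrl libraries and 6.47, 7.45 and 5.59 in Cadict libraries, a 4.85-fold difference of the means. Rrm2 to Rrm1 was 1.35, 1.36 and 1.35 in Ctrl libraries and 0.417, 0.447 and 0.453 in Cadict libraries, so the order of the 2 subunits of the reductase turned over. Pola2 to Pola1 turned over as well, from 2.17 ± 0.156 in Ctrl to 0.867 ± 0.0987 in Cadict libraries. Prim1 to Prim2 went from 1.03 ± 0.0286 to 2.45 ± 0.266 and Orc6 to Orc2 from 2.99 ± 0.0852 to 6.39 ± 0.369 (SD, n = 3 each). The remaining ratios moved by less. Pold2 to Pold1 went from 1.42 ± 0.12 to 1.89 ± 0.0996, Pole2 to Pole from 1.77 ± 0.0898 to 2.53 ± 0.371 and Mcm5 to Mcm7 from 0.922 ± 0.00409 to 1.07 ± 0.0506, without overlap. Gins2 to Gins3 overlapped, at 3.02 to 3.11 in Ctrl and 3.00 to 4.99 in Cadict libraries. Cdt1 to Gmnn was 0.75 ± 0.0541 in Ctrl and 2.95 ± 0.223 in Cadict libraries in TPM, but 2.09 ± 0.161 and 2.83 ± 0.162 in counts, so most of that difference lay in the length used for Gmnn. With 3 libraries against 3, an exact two-sided permutation test cannot go below p = 0.1, so the separation of the ratios is given as values.

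**Figure D4:**
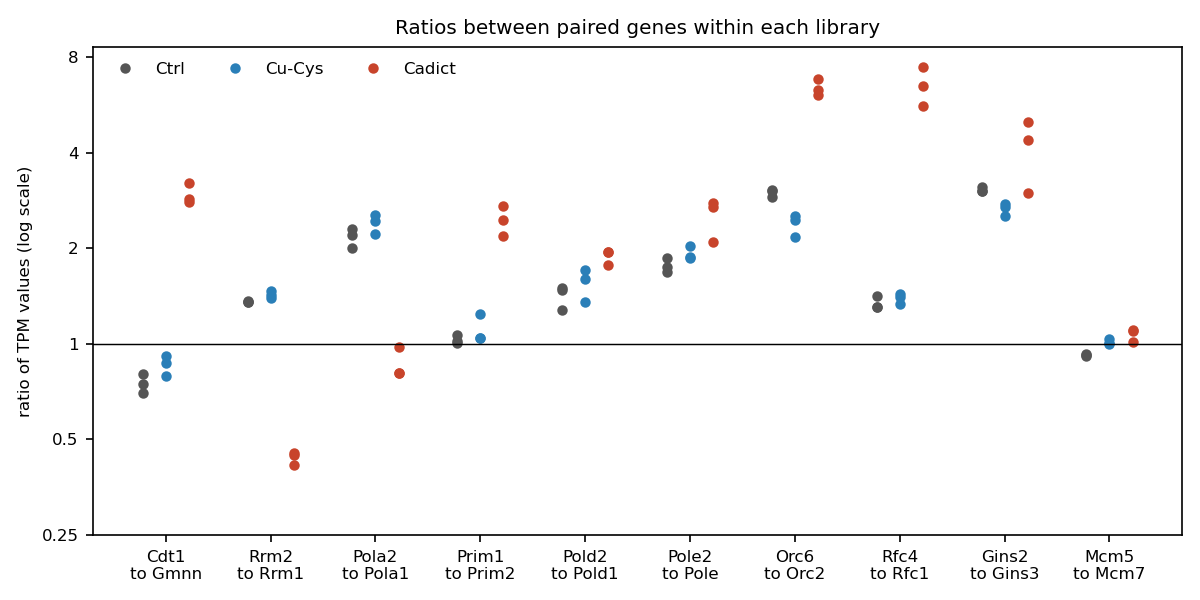
Ratio of the TPM values of 2 genes within each library (log axis), with 1 point per library, for 10 pairs of partner genes. Rfc4 to Rfc1 lies at 5.59 to 7.45 in Cadict libraries and at 1.3 to 1.43 in the others, and Rrm2 to Rrm1 and Pola2 to Pola1 drop below 1 only in Cadict libraries among the 9.

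The order of abundance among the members shifted accordingly. In Ctrl libraries the highest mean TPM belonged to Pcna, Rrm2, Mcm6, Rrm1 and Mcm3, and in Cadict libraries to Pcna, Mcm3, Orc6, Rpa1 and Rrm1. Orc6 moved from place 14 to place 3 of 46 (137 ± 0.593 to 189 ± 11 TPM). Tk1 moved from place 8 to place 33 (258 ± 8.23 to 16.4 ± 1.74 TPM) and Rrm2 from place 2 to place 14 (414 ± 5.27 to 75.9 ± 11.5 TPM). Orc4, next to last in Ctrl libraries, reached place 27, and Pold3 was last in Cadict libraries at 3.65 ± 0.303 TPM. Spearman's rho between implied length and change was 0.0087 over the 46 genes (a description across genes, which are not independent replicates), beside -0.224 over 10897 tested genes.

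After Cu-Cys the same genes moved little. No member was called at the 2-fold threshold, beside 0.167% of all tested genes higher and 1.47% lower. By adjusted p alone 12 rose and 10 fell, or 26.1% and 21.7%, beside 22.6% and 22.4% of all tested genes. Most of the rises lay at the start of replication. Among ORC, licensing, helicase, Cdc45 and GINS genes, 4 of 6 ORC genes (Orc1, Orc2, Orc4 and Orc6), both loading factors (Cdc6 and Cdt1), 3 of 7 helicase genes (Mcm3, Mcm5 and Mcm10) and Gins1 rose, and Orc3 was the only gene of these groups to fall. Most of the falls lay at the fork and in nucleotide supply. Pola1, Pold1, Pole and Pole2 of the 9 polymerase genes, Rfc1 and Rfc2 of the loader, Lig1, Rrm1 and Tk1 fell. Pcna and Fen1 rose. All 7 helicase genes lay above the median of all tested genes (0.0067) and all 9 polymerase genes below it. Some lay close to that median without passing, such as Mcm7 (0.0136 ± 0.0433), Mcm6 (0.0169 ± 0.0454) and Pola2 (-0.0475 ± 0.0520). Another scaling shifts all genes nearly alike, so library totals or DESeq2 size factors cannot test that order. With library totals 1 of 7 helicase genes rose (median 0.0106) and 8 of 9 polymerase genes fell (median -0.20). With library totals 5 members rose and 17 fell. Of the 22 members that passed, 11 (Cdt1, Fen1, Mcm5, Orc3, Orc6, Pcna, Pola1, Pold1, Pole2, Rfc2 and Rrm1) no longer did so when some single library was left out. Without Ctrl replicate 1 or Cu-Cys replicate 3 only 7 members rose, and 6 fell without Ctrl replicate 2, Cu-Cys replicate 2 or Cu-Cys replicate 3 and 5 without Ctrl replicate 3. The grouping by stage was seen in these values and was not tested.

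Orc2, Tk1 and Lig1 had the lowest adjusted p among members in this comparison. Orc2, an ORC core subunit, had 65.9, 69.0 and 72.4 CPM in Ctrl, 97.8, 96.4 and 93.6 in Cu-Cys and 103.9, 115.8 and 103.5 in Cadict libraries. Ctrl libraries were the lowest without overlap, and Orc2 rose 1.39-fold after Cu-Cys (log2 0.47 ± 0.06, adjusted p = 1.29e-05 by edgeR's quasi-likelihood test). Tk1 fell 1.29-fold and Lig1 fell 1.28-fold. Orc2 rose and Lig1, Pole, Rfc1 and Tk1 fell under each of the 16 alternatives run, and the smaller changes passed less steadily.

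Cadict was also compared with Cu-Cys directly, to ask how cells given the nanodrug differed from cells given Cu-Cys, with the doses of both not given in the sources used here. Here 20 members rose and 22 fell (beside 40.3% and 45.6% of all tested genes), and 4 were called higher and 7 lower (beside 18.6% and 23.6%). Orc4, Orc6, Pola1 and Rfc4 were the 4 called higher, with Rfc4 2.21-fold and Pola1 2.5-fold above Cu-Cys. These 4 calls were lost when library totals set the scale. Tk1 was 4.8-fold and Pold3 4.4-fold below Cu-Cys. Both comparisons with Ctrl use the same control libraries, so their values are set side by side without a correlation. Orc1 was at 0.22 after Cu-Cys and at -1.27 after Cadict, and the direct difference was -1.49 ± 0.07. Pola1 was at -0.20 and 1.13, with a direct difference of 1.32 ± 0.06. Rrm1 was at -0.14 and 0.48, with a direct difference of 0.62 ± 0.05 that became -0.26 under library totals. Cdc6 was at 0.26 and -0.22, with a direct difference of -0.48 ± 0.07. On the TMM scale Lig1 did not differ detectably between the treatments (log2 0.0814, 95% interval -0.0432 to 0.21). With library totals it turned sign and was lower after Cadict. Its expected counts were 3209 to 3596 in Cu-Cys and 1834 to 2073 in Cadict libraries.

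Genes around the core machinery were taken from 5 lists written from general knowledge, and their counts are descriptions beside all tested genes, of which 40.6% rose and 47.1% fell after Cadict with a median of -0.13. Of 29 other fork and firing factors, 10 (34.5%) rose and 18 (62.1%) fell, with a median of -0.63. Dna2, a nuclease-helicase that trims flaps, fell from 23.0 to 2.39 CPM (log2 -3.27 ± 0.13) and Cdc7, the kinase that fires origins, from 23.8 to 4.36 CPM (log2 -2.45 ± 0.10). Pold4 and Pole4, small subunits of polymerases delta and epsilon, rose by 1.65 ± 0.10 and 1.27 ± 0.06. Under library totals 3 of the 29 rose and 23 fell.

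Of 23 genes of the RB-E2F axis and the cyclins, which control S-phase entry, 7 (30.4%) rose and 14 (60.9%) fell, with a median of -1.04, and with library totals 2 rose and 19 fell. Ccne2, a cyclin that drives S-phase entry, fell from 56.1 to 4.09 CPM (log2 -3.77 ± 0.14) and Ccnd1, the G1 cyclin, fell by 3.24 ± 0.06. Cdkn1a, the inhibitor of cyclin-dependent kinases also known as p21, rose from 58.9 to 426 CPM (log2 2.85 ± 0.05), and Cdk4 rose by 1.59 ± 0.05. The list mixes drivers and inhibitors of S-phase entry, and Cdkn1b, another inhibitor of these kinases, fell by 2.39 ± 0.09. After Cu-Cys, Cdkn1a was at 0.42 and Ccne2 at 0.0932, the latter without passing. Of 17 genes of the replication stress checkpoint, 3 (17.6%) rose and 12 (70.6%) fell, with a median of -1.29 and 1 and 16 under library totals. Cdc25b, a phosphatase that opens mitosis, fell by 2.65 ± 0.07 and Etaa1, an activator of the ATR kinase, by 2.58 ± 0.08. Chek1, the kinase downstream of ATR, rose by 0.29 ± 0.05 and Rad9a, a subunit of the checkpoint clamp, by 1.76 ± 0.06, the first by less than the shift of -0.95 between scalings.

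Nucleotide synthesis outside the 46 genes was divided. Of 12 purine genes 6 (50%) rose and 6 (50%) fell (median 0.10), and of 17 genes of pyrimidine synthesis and deoxynucleotide balance 8 (47.1%) rose and 7 (41.2%) fell (median 0.0138). Under library totals the counts were 2 and 10 for purines and 5 and 11 for pyrimidines. Atic, which closes the purine ring, rose by 1.54 ± 0.05 and Adss, on the branch to AMP, by 1.24 ± 0.04. Prps2, which makes the ribose donor, fell by 2.09 ± 0.07 and Impdh1, on the branch to GMP, by 1.56 ± 0.07. The nucleoside diphosphate kinases Nme1 and Nme2 rose by 2.52 ± 0.10 and 2.1 ± 0.11. Tk2, the mitochondrial thymidine kinase, fell by 2.07 ± 0.15 and Ctps2, a CTP synthase, by 1.5 ± 0.08. After Cu-Cys the purine list had 8 genes that rose and 2 that fell, and the pyrimidine list 8 and 4.

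**Figure D5:**
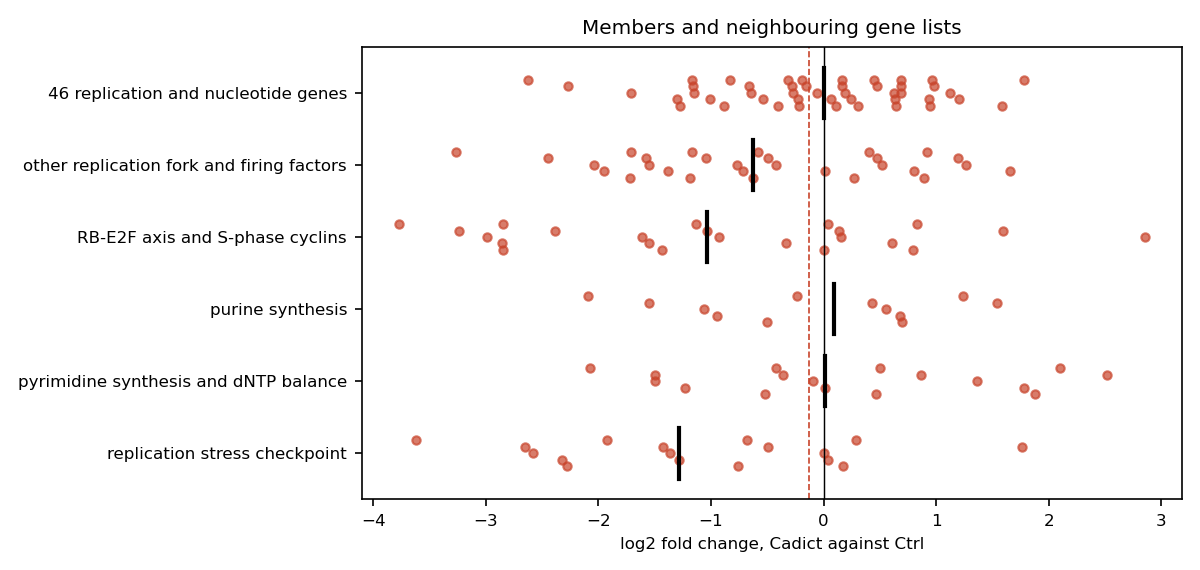
Log2 fold change (TMM-scaled counts) of Cadict against Ctrl for the 46 genes and 5 neighbouring lists, with 1 point per gene, a black bar at the list's median and a dashed line at the median of all tested genes (-0.13). The medians are 0.0057 for the 46 genes, -0.63 for other fork and firing factors, -1.04 for the RB-E2F axis and cyclins and -1.29 for the checkpoint. With library totals all of these medians lie below 0.

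Members with the E2F letters in their promoters were found in both directions. Of the 15 members with an E2F match, 5 rose and 9 fell after Cadict (median -0.22), and of the 23 with a window but no match, 12 rose and 9 fell (median 0.31). Over all tested genes the medians were -0.15 with a match (459 genes) and -0.13 without (9088 genes). A CCAAT box (the letters CCAAT on either strand) was in 60.5% of the members' windows and in those of 41.1% of all genes. Of the 23 members with CCAAT 14 rose and 6 fell (median 0.48), and of the 15 without it 3 rose and 12 fell (median -0.64). Over all tested genes the medians were -0.18 with CCAAT (4185 genes) and -0.0878 without (5362 genes). The GC box GGGCGG can share bases with the E2F letters on the opposite strand. It was in 76.3% of the members' windows and in those of 38.2% of all genes, tested or not. Among tested genes with a window, 6642 held it and 2905 did not, so it was also common among tested genes. The members with it had 11 rises and 16 falls. These counts describe the windows and were not tested.

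Several members share sequence with other genes, and a strand setting for the counting is not given in the sources used here. In GENCODE M21, 76.7% of the 50-base stretches of Fen1 transcripts also occur in another annotated gene, foremost Gm10143, and 65.4% of those of Gins2, foremost in Gse1, both genes annotated on the opposite strand. The shares were 26.7% for Orc2 (Nif3l1), 23.3% for Mcm7 (Gm5487), 19.1% for Pcna (the pseudogene Pcna-ps2), 16% for Rfc2 (Lat2) and 13.3% for Rfc5 (Wsb2). Each of the other members shared under 10%. These shares are over all annotated transcripts and do not measure the error of a count, but they leave the values of these 7 genes less certain. Among others with large changes the shares were 9.14% (Rfc4), 7.21% (Orc1), 5.81% (Orc4), 5.02% (Orc6), 2.35% (Tk1), 2.13% (Pold3) and 1.41% (Pola1).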

How the data were processed

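The labels name HISAT2 2.1.0, Bowtie2 2.3.4.3 and RSEM 1.3.1 and the builds GRCm39 and GRCh38.p13. The study's methods name TRIzol and an Illumina instrument, whereas the labels name a column kit and DNA nanoballs. For each library the authors deposited expected counts (estimated reads per gene, not normalized), TPM and FPKM. Their 9 columns of scaled counts and 12 of group averages were not used.

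Expected counts were rounded and tested in R 4.3.3 with edgeR 4.0.16 (filterByExpr, TMM, a quasi-likelihood model of the 3 groups, Benjamini-Hochberg adjustment over 11949 genes). "Rose" and "fell" denote an adjusted p of at most 0.05, and "called" at least 2-fold and at most 0.001. The implied length is the count divided by FPKM and by the library's total count. The members, gene lists and promoter letters were chosen with earlier results of these data known. Values in every library are given for the members with the highest and the lowest change in each role, for the 3 lowest adjusted p in Cu-Cys against Ctrl (where none was called) and for Pcna, Cdt1, Gmnn, Rrm2 and E2f1. Of the other lists, the 2 highest and 2 lowest genes with at least 10 CPM on average are named. GENCODE M21 and RefSeq windows are on GRCm38, so their coordinates were used for sequence only and not joined to the files.

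The fit was tested on simulated data with known changes. Few genes changed there, as many up as down, so it could not test the choice of scaling. Alternatives were DESeq2 1.42.0 (size factors, Wald test), library totals, other filters, limma 3.58.1 on deposited TPM (pseudocounts of 1 and 0.1) and FPKM (1), only the 2 groups compared, the replicate block and leaving out each library. Residual correlations of same-numbered libraries ran from -0.274 to 0.237 over 5974 genes, so the numbers were not taken as pairs. No 2 libraries had identical counts.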

Additional observations from a re-analysis of the deposited data

How the results depend on the processing

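The choice of scaling decides the direction of most rises after Cadict. Library totals, TPM and FPKM move the typical gene downwards, so they could not test the falls. DESeq2 size factors moved it up by 0.12 on the log2 scale for Cadict against Ctrl. With them 17 members fell, beside 22 in the reported fit. With library totals, for Cadict against Ctrl 0 members were called higher and 23 called lower (4 and 38 by adjusted p, median -0.95), and 0 and 22 in Cadict against Cu-Cys (4 and 38, median -0.85). With limma on log2(TPM + 1) the calls were 0 and 30 (2 and 42 by adjusted p, median -1.32) and 0 and 27 (1 and 42, median -1.11). With limma on log2(TPM + 0.1) they were again 0 and 30 (2 and 42, median -1.33) and 0 and 27 (1 and 42, median -1.13), and with limma on log2(FPKM + 1) 0 and 23 (4 and 38, median -0.97) and 0 and 22 (4 and 38, median -0.84). For Cadict against Ctrl, DESeq2 size factors called 8 members higher (median 0.12, and 0.13 against Cu-Cys), and DESeq2's Wald test 8 higher (median 0.0857). Among all genes tested these settings called 2746 and 2767 higher. The members' median was -0.0564 with at least 10 counts in every library and -0.0746 with no filter (-0.0519 against Cu-Cys). For Cu-Cys against Ctrl, the members passing higher and lower were 5 and 17 with library totals (median -0.0564), 1 and 19 with limma on log2(TPM + 1) (median -0.13), 1 and 19 on log2(TPM + 0.1) (median -0.13) and 4 and 17 on log2(FPKM + 1) (median -0.0608). The median there was 0.0392 with DESeq2 size factors and -0.0114 with at least 10 counts in every library.

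Members that passed the threshold in the reported fit or in the alternative turned sign only with library totals, TPM and FPKM among the settings run. Members that passed in neither, such as Mcm2 with DESeq2 size factors and Rpa3 with no filter in Cadict against Ctrl, changed sign near 0 under other settings too. Values for Cadict against Cu-Cys are given for some of the members that turned sign there, which were 18 with library totals, 19 with FPKM and 21 with either TPM setting. With library totals the log2 fold changes were Orc2 -0.31, Cdt1 -0.79, Mcm5 -0.50, Mcm7 -0.71, Mcm10 -0.0129, Cdc45 -0.32, Gins1 -0.27, Gins2 -0.84, Gins4 -0.76, Pcna -0.26, Rfc3 -0.79, Prim1 -0.27, Rpa1 -0.33, Rpa2 -0.0074, Rpa3 -0.89, Fen1 -0.64 and Rrm1 -0.48 in Cadict against Ctrl, and among others Orc2 -0.72, Cdt1 -0.86, Gins1 -0.48, Pcna -0.35, Rpa2 -0.0439, Lig1 -0.80 and Rrm1 -0.26 in Cadict against Cu-Cys. With limma on log2(FPKM + 1) the log2 fold changes were Orc2 -0.27, Cdt1 -0.78, Mcm5 -0.50, Mcm7 -0.72, Mcm10 -0.0230, Cdc45 -0.32, Gins1 -0.27, Gins2 -0.86, Gins4 -0.77, Pcna -0.28, Rfc3 -0.79, Prim1 -0.28, Rpa1 -0.33, Rpa2 -0.0207, Rpa3 -0.94, Fen1 -0.67 and Rrm1 -0.48 in Cadict against Ctrl, and among others Orc2 -0.69, Cdt1 -0.85, Gins1 -0.50, Pcna -0.36, Rpa2 -0.0531, Lig1 -0.79 and Rrm1 -0.27 in Cadict against Cu-Cys. With limma on log2(TPM + 1) the log2 fold changes were Orc2 -0.61, Cdt1 -1.12, Mcm3 -0.0939, Mcm4 -0.34, Mcm5 -0.85, Mcm7 -1.07, Mcm10 -0.36, Cdc45 -0.66, Gins1 -0.61, Gins2 -1.21, Gins4 -1.11, Pcna -0.63, Rfc3 -1.14, Rfc4 -0.34, Pola1 -0.17, Prim1 -0.62, Rpa1 -0.68, Rpa2 -0.36, Rpa3 -1.28, Fen1 -1.01 and Rrm1 -0.83 in Cadict against Ctrl, and among others Orc2 -0.96, Cdt1 -1.12, Mcm3 -0.19, Gins1 -0.77, Pcna -0.63, Rfc4 -0.0319, Rpa2 -0.32, Lig1 -1.07 and Rrm1 -0.54 in Cadict against Cu-Cys. With limma on log2(TPM + 0.1) the log2 fold changes were Orc2 -0.63, Cdt1 -1.14, Mcm3 -0.0942, Mcm4 -0.34, Mcm5 -0.85, Mcm7 -1.07, Mcm10 -0.37, Cdc45 -0.67, Gins1 -0.62, Gins2 -1.22, Gins4 -1.13, Pcna -0.63, Rfc3 -1.16, Rfc4 -0.34, Pola1 -0.18, Prim1 -0.63, Rpa1 -0.68, Rpa2 -0.37, Rpa3 -1.29, Fen1 -1.03 and Rrm1 -0.83 in Cadict against Ctrl, and among others Orc2 -0.98, Cdt1 -1.14, Mcm3 -0.19, Gins1 -0.79, Pcna -0.63, Rfc4 -0.0322, Rpa2 -0.33, Lig1 -1.08 and Rrm1 -0.54 in Cadict against Cu-Cys. Cdt1 in Cu-Cys against Ctrl was at -0.0020 with both TPM settings.

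Leaving out 1 library at a time gave 4 to 5 members called higher and 8 to 9 lower in Cadict against Ctrl (18 to 22 and 22 by adjusted p, median -0.0278 to 0.0185), 4 and 7 in Cadict against Cu-Cys (17 to 19 and 20 to 22, median -0.0191 to 0.0590), and 0 called with 7 to 10 higher and 5 to 8 lower in Cu-Cys against Ctrl (median -0.0118 to 0.0267). Replicate numbers did not pair the libraries. With the replicate block, 4 members were called higher and 9 lower in Cadict against Ctrl, 0 in Cu-Cys against Ctrl, and 4 and 7 in Cadict against Cu-Cys, and by adjusted p the counts were 21 and 22, 11 and 8, and 20 and 22. Of the members that passed, 2 of 42 (Cdt1 and Gins4) lost significance without some single library in Cadict against Ctrl, 6 of 42 (Fen1, Gins2, Gins4, Mcm2, Orc2 and Pola2) in Cadict against Cu-Cys and 11 of 22 in Cu-Cys against Ctrl. The cause of these differences was not tested.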
